A study of Zea mays with 12 samples.

Results

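The transfer layer genes described here are 5 maize genes that mark the basal endosperm transfer layer: *betl2*, *betl3*, *betl9*, *meg1* and *mrp1*. They were chosen by gene identifier from a list of 7 named for this cell type, and make up 5 of the 41430 gene models in the tables. The 2 other identifiers, GRMZM2G082785 (*betl1*) and GRMZM2G091054 (listed as *betl10*), were not analysed here. RNA was sequenced from whole seeds of the wild-type maize inbred Q319 and of L100, a transgenic line. Seeds were taken at 10 and at 15 days after pollination (DAP). Each of the 4 groups had 3 libraries. The labels do not name the transgene, its promoter or the background of L100. L100 is 1 line, so a difference from wild type cannot be told apart from other differences between these 2 stocks. Nothing in the labels tells whether replicates are different plants. The tests therefore weigh differences against the spread among libraries, which may be technical.

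The basal endosperm transfer layer lies at the base of the kernel, against the maternal tissue that delivers nutrients. Its cells carry wall ingrowths that enlarge the plasma membrane, and they take up sugars and amino acids for the filling seed. MRP1, a MYB-related transcription factor, activates promoters of several genes of the layer. Many of those genes encode small, secreted, cysteine-rich peptides.

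Totals ranged from 14014035 to 22370566 counts per library. A level of 3 counts was 0.152 to 0.23 CPM, depending on the library (counts scaled to a total of 1e+06 per library, after TMM scaling), a limit that covers counting error only. All 5 genes passed the filter on low counts, and their counts ran from 32 (*mrp1* in L100 15 DAP replicate 2) to 9066 (*betl9*). In bulk seed, fewer transfer cells and less RNA per transfer cell cannot be told apart. L100 10 DAP replicate 2 stood apart in the markers of the starchy endosperm, the storage tissue of the kernel. Their summed level there was 2301 CPM, against 10660 CPM in replicate 1 and 5882 CPM in replicate 3 of its group. Without that library, the counts of called genes among the 5 were the same as with it in all 5 comparisons.

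In wild type, 4 of the 5 genes fell between 10 and 15 DAP, and in L100 3 of the 5 fell. *betl2*, *meg1* and *mrp1* were called lower in both lines, by 2.96-fold to 3.85-fold. *betl9* fell in wild type and did not pass in L100, and *betl3* passed in neither line. No gene of the 5 passed the test between L100 and wild type at either stage, nor the genotype by stage interaction. Across all 24941 genes tested, 15.3% were called lower at 15 DAP in wild type and 12.6% in L100. The libraries of the stages did not overlap for 4 of the 5 genes in wild type, against 51.6% of all genes, and for 3 of the 5 in L100, against 39.3%. The median log2 fold change of the 5 genes was -1.57 in wild type and -1.56 in L100, against -0.01 and -0.03 over all genes tested.

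**Figure D1:**
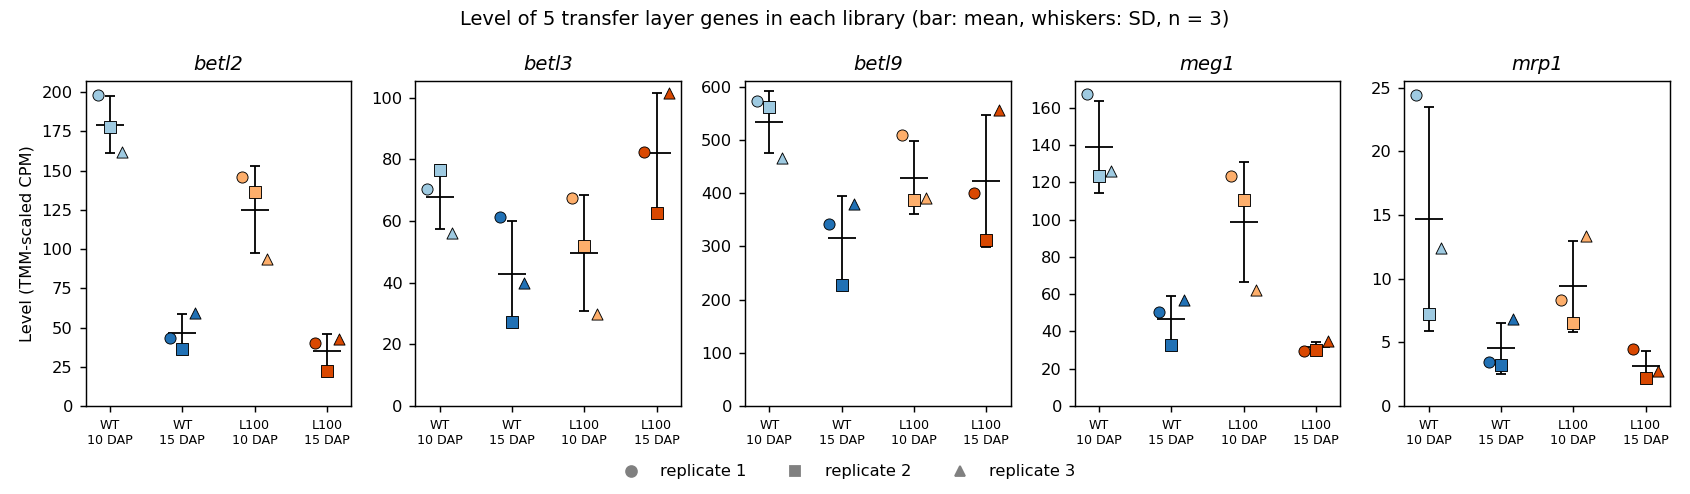
Level of each of the 5 transfer layer genes in the 12 libraries (TMM-scaled CPM, vertical axis from 0, scaled separately per gene), grouped by line (WT is wild type) and stage; points are libraries, bars the mean and whiskers the SD of 3 libraries. The 10 DAP libraries of *betl2* and *meg1* lie above all 15 DAP libraries of both lines, whereas *betl3* and *betl9* in L100 overlap between stages.

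MRP1 is the transcription factor of the group, and whether it acts on the other genes described here was not tested. Its gene, GRMZM2G111306, lies on chromosome 8 at 127961081 to 127962032 on the minus strand (B73 RefGen_v3), and the name comes from the list of identifiers alone, since the reference table has no entry for it. In wild type at 10 DAP the level of *mrp1* was 24.4, 7.22 and 12.4 CPM, and at 15 DAP it was 3.50, 3.21 and 6.87 CPM. In L100 it was 8.33, 6.49 and 13.4 CPM at 10 DAP, and 4.51, 2.22 and 2.76 CPM at 15 DAP. Every 10 DAP library lay above every 15 DAP library of its own line, but the highest wild-type library at 15 DAP was close to the lowest at 10 DAP. *mrp1* fell by 1.69 on the log2 scale in wild type (SE 0.475, adjusted p = 0.019, edgeR quasi-likelihood test) and its log2 fold change was -1.56 in L100 (SE 0.485, adjusted p = 0.036). In wild type the call was lost without 10 DAP replicate 1 (adjusted p = 0.085), 15 DAP replicate 1 (adjusted p = 0.071) or 15 DAP replicate 2 (adjusted p = 0.074). In L100 it was lost without wild-type 10 DAP replicate 3 (adjusted p = 0.05), L100 10 DAP replicate 1 (adjusted p = 0.056) or replicate 3 (adjusted p = 0.12), or L100 15 DAP replicate 2 (adjusted p = 0.12) or replicate 3 (adjusted p = 0.1).

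*betl2*, also named *bap2*, encodes a small secreted peptide with antifungal relatives. It is GRMZM2G152655, on chromosome 4 at 34294980 to 34295377 on the plus strand. Wild-type libraries held 198, 178 and 162 CPM of *betl2* at 10 DAP and 43.7, 36.4 and 59.6 CPM at 15 DAP. L100 libraries held 146, 136 and 93.6 CPM at 10 DAP and 40.1, 22.2 and 42.7 CPM at 15 DAP. The stages did not overlap in either line, and the 2 groups at 15 DAP overlapped each other. *betl2* fell by 1.95 on the log2 scale in wild type (SE 0.263, adjusted p = 0.00031) and its log2 fold change was -1.84 in L100 (SE 0.263, adjusted p = 0.00062). It was called in all 12 fits that left out 1 library, in each line, with a highest adjusted p of 0.0022 in wild type and 0.003 in L100.

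*meg1* is a maternally expressed gene whose cysteine-rich peptide acts in the formation of the transfer layer. Its model GRMZM2G354335 spans 13073301 to 13088312 on chromosome 7, on the plus strand. The span of 15012 bp is long against the 1197 bp given as its length. *meg1* stood at 167, 124 and 126 CPM in wild type at 10 DAP and at 50.4, 32.9 and 56.7 CPM at 15 DAP. In L100 its libraries held 123, 110 and 62.1 CPM at 10 DAP and 29.7, 30.0 and 34.7 CPM at 15 DAP. The stages did not overlap in either line, and the 3 L100 libraries at 15 DAP were close together. *meg1* fell by 1.57 on the log2 scale in wild type (SE 0.259, adjusted p = 0.001) and its log2 fold change was -1.65 in L100 (SE 0.261, adjusted p = 0.0011). These calls held in all 12 fits with 1 library left out, with a highest adjusted p of 0.0049 in wild type and 0.007 in L100. Near-identical copies of *meg* and *bap* genes occur in maize, and how the counting treated shared reads is not given in the sources used here, so both values are uncertain to that extent.

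*betl9*, a transfer layer transcript, had the highest count level of the 5. It is GRMZM2G087413, on chromosome 3 at 138651682 to 138652376 on the plus strand. Its level was 573, 562 and 467 CPM in wild type at 10 DAP and 342, 228 and 379 CPM at 15 DAP. In L100 it was 509, 388 and 392 CPM at 10 DAP and 400, 312 and 556 CPM at 15 DAP. The stages were apart in wild type and overlapped in L100, where the highest and the lowest library both came from 15 DAP. *betl9* fell by 0.76 on the log2 scale in wild type (SE 0.231, adjusted p = 0.027). That call was lost without wild-type 10 DAP replicate 1 (adjusted p = 0.07) or replicate 2 (adjusted p = 0.064), or 15 DAP replicate 2 (adjusted p = 0.1). In L100 the log2 fold change was -0.02 (95% interval -0.52 to 0.48, adjusted p = 0.96).

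*betl3* encodes another of the small peptides of the layer. It is GRMZM2G175976, on chromosome 3 at 132282710 to 132285403 on the plus strand. Wild-type libraries held 70.5, 76.4 and 56.2 CPM of *betl3* at 10 DAP and 61.4, 27.1 and 39.9 CPM at 15 DAP. L100 libraries held 67.4, 51.8 and 29.7 CPM at 10 DAP and 82.3, 62.7 and 101.5 CPM at 15 DAP. The stages overlapped in both lines, and the highest mean in CPM was that of L100 at 15 DAP. The log2 fold change from 10 to 15 DAP was -0.66 in wild type (SE 0.332, adjusted p = 0.16) and 0.73 in L100 (SE 0.331, adjusted p = 0.13), neither past the threshold. With library totals in place of TMM scaling the wild-type value was -0.97 and passed (adjusted p = 0.036). With 1 library left out it ran from -1.01 (without 15 DAP replicate 1, adjusted p = 0.05, past the threshold) to -0.42 (without 15 DAP replicate 2, adjusted p = 0.4). The deposited length of the *betl3* model is 2519 bp, against 515 bp for the gene in the reference table, which is of another assembly.

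**Figure D2:**
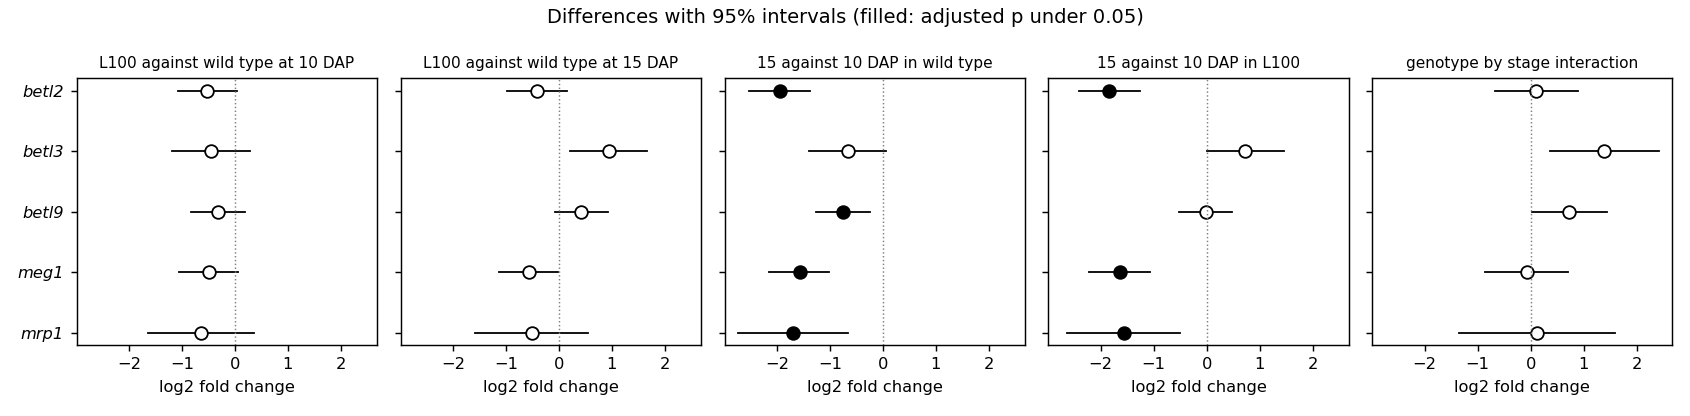
Log2 fold change of the 5 genes in each of the 5 comparisons (horizontal axis), with lines for the 95% interval and filled points for an adjusted p under 0.05. Filled points appear in the 2 stage comparisons only, 4 in wild type and 3 in L100, and every genotype and interaction point is open.

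The order of the 4 group means in CPM differed between genes. For *betl2* and *meg1* it was wild type at 10 DAP, L100 at 10 DAP, wild type at 15 DAP and L100 at 15 DAP, and only the last pair of neighbours overlapped. *mrp1* had the same order with every pair of neighbours overlapping. For *betl9* the order was wild type at 10 DAP, L100 at 10 DAP, L100 at 15 DAP and wild type at 15 DAP. For *betl3* it was L100 at 15 DAP, wild type at 10 DAP, L100 at 10 DAP and wild type at 15 DAP. All neighbours overlapped for these 2 genes as well.

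At 10 DAP all 5 genes had a lower mean in L100 than in wild type, and 0 of the 5 passed the test, where 3.0% of all genes tested were called. None reached an unadjusted p under 0.05, and DESeq2 and limma-voom also called 0 of the 5. Their median log2 fold change was -0.495, against 0.012 over all genes tested. Markers of other seed tissues also had negative medians: -0.328 for the embryo surrounding region, -0.241 for starchy endosperm, -0.158 for embryo and -0.116 for aleurone. Mean *betl2* was 179 ± 18.1 CPM in wild type and 125 ± 27.8 CPM in L100 (SD, n = 3), a log2 fold change of -0.52 (95% interval -1.07 to 0.04). Mean *meg1* was 139 ± 24.7 and 98.6 ± 32.2 CPM, a log2 fold change of -0.49 (95% interval -1.05 to 0.06). The libraries of these 2 genes did not overlap between the lines, which was so for 27.3% of all genes. For *meg1* the margin was narrow, with 123.2 CPM in the highest L100 library and 123.5 CPM in the lowest wild-type library. For the other 3 genes the libraries overlapped, with log2 fold changes of -0.31 for *betl9*, -0.45 for *betl3* and -0.64 for *mrp1*. Single libraries moved these values. Leaving out wild-type 10 DAP replicate 1 gave -0.0789 for *mrp1*, and leaving out L100 10 DAP replicate 3 gave -0.997. Without L100 10 DAP replicate 1 it was -0.76 for *betl3*, -0.48 for *betl9* and -0.71 for *meg1*, and without L100 10 DAP replicate 3 it was -0.20 for *betl3* and -0.26 for *meg1*. The widest interval was that of *mrp1*, the gene with the fewest counts, from -1.65 to 0.36.

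At 15 DAP 0 of the 5 passed, where 6.66% of all genes were called. *betl3* had 42.8 ± 17.3 CPM in wild type and 82.2 ± 19.4 CPM in L100 (SD, n = 3), a log2 fold change of 0.94 (95% interval 0.21 to 1.67, unadjusted p = 0.017, adjusted p = 0.12 in the edgeR fit). Its L100 libraries all lay above its wild-type libraries in CPM, narrowly (lowest 62.7 against highest 61.4 CPM), a separation that 30.0% of all genes showed. In FPKM, the per-length value that the authors deposited, these libraries overlapped. They ran from 167 to 265 FPKM in wild type and from 213 to 325 FPKM in L100. DESeq2 called this gene alone of the 5 (adjusted p = 0.039), and limma-voom called 0. *meg1* also had an unadjusted p under 0.05, with a log2 fold change of -0.57 (adjusted p = 0.21 in the edgeR fit) and libraries that overlapped. *betl2*, *mrp1* and *betl9* had log2 fold changes of -0.41, -0.52 and 0.42, with overlapping libraries. With 1 library left out, *mrp1* had -0.87 where L100 15 DAP replicate 1 was omitted and -0.08 where replicate 3 of wild type at 15 DAP was omitted. *betl2* ran from -0.58 without L100 15 DAP replicate 3 to -0.17 without L100 15 DAP replicate 2, and the same 2 libraries set the range of *betl9*, from 0.17 to 0.59.

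The interaction, in which the 10 DAP difference between lines is subtracted from the 15 DAP one, was called for 0 of the 5 genes and for 0.545% of all genes. The largest value was that of *betl3*, 1.39 (SE 0.469, unadjusted p = 0.013, adjusted p = 0.18 in the edgeR fit). That of *betl9* was 0.73 (SE 0.326, unadjusted p = 0.044, adjusted p = 0.29 in the edgeR fit). *betl2*, *meg1* and *mrp1* had values of 0.11, -0.07 and 0.13. The 95% interval of *mrp1* ran from -1.35 to 1.60. A stage call in wild type beside none in L100, as for *betl9*, was therefore not shown to be a difference between the lines.

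The make-up of the summed counts of the 5 genes moved with stage, a measure that does not depend on the scaling between libraries. *betl9* held 55.4% to 59.4% of the sum in wild type at 10 DAP and 68.2% to 69.9% at 15 DAP. In L100 it held 56.0% to 66.3% at 10 DAP and 71.9% to 75.4% at 15 DAP. The share of *betl2* went from 18.8% to 19.7% in wild type at 10 DAP to 8.72% to 11.1% at 15 DAP, and in L100 from 15.8% to 19.7% to 5.16% to 7.20%. The stages did not overlap in either line for these 2 shares. *betl3* held 5.04% to 8.07% of the sum in the 10 DAP libraries, 7.36% to 12.3% in wild type at 15 DAP and 13.8% to 14.8% in L100 at 15 DAP. The summed level of the 5 genes averaged 934.5 CPM in wild type and 712 CPM in L100 at 10 DAP, and 457 and 575 CPM at 15 DAP. At each stage the lines overlapped in this sum. It ran from 823 to 1033 CPM in wild type and from 590 to 853 CPM in L100 at 10 DAP. At 15 DAP it ran from 327.5 to 542 CPM and from 429 to 738 CPM.

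Levels of different genes can be set side by side only per length, for which the authors' deposited FPKM was used. In wild type at 10 DAP *betl2* had 1950 ± 230 FPKM and *betl9* 1846 ± 184 FPKM (SD, n = 3), and their libraries overlapped. *betl3* had 283 ± 83.1 FPKM and *meg1* 262 ± 44.5 FPKM, which also overlapped, and *mrp1* had 24.9 ± 15.2 FPKM. In L100 at 15 DAP the order was *betl9* at 1483 ± 386, *betl2* at 404 ± 124, *betl3* at 275 ± 56.9, *meg1* at 55.4 ± 1.63 and *mrp1* at 5.19 ± 1.95 FPKM. The FPKM of a gene did not follow its count per deposited length at 1 ratio. Over the libraries that ratio ran from 5.30 to 18.9 for *betl3* and from 1.76 to 3.85 for *betl2*. It ran from 1.08 to 1.985 for *betl9*, 1.68 to 2.77 for *meg1* and 0.859 to 1.42 for *mrp1*. The places of the genes in these orders are uncertain to that extent, that of *betl3* most of all. The order of group means also turned between the units, for pairs of groups whose libraries overlapped in both units. In FPKM *betl3* was highest in wild type at 10 DAP, at 283 against 275 in L100 at 15 DAP, and its wild-type mean at 15 DAP was 215. *betl9* in L100 had 1414 ± 399 FPKM at 10 DAP and 1483 ± 386 FPKM at 15 DAP, the reverse of its order in CPM.

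A further list of transfer layer genes was matched by name: 33 names gave 9 gene models, of which 8 were tested. In wild type 6 of the 8 fell from 10 to 15 DAP and in L100 5 of the 8, with none called higher, against 15.3% and 12.6% of all genes called lower. Their median log2 fold change was -2.07 in wild type and -2.25 in L100, against -0.01 and -0.03 over all genes tested. *tcrr1* (GRMZM2G016145), a response regulator of transfer cells, fell from 55.4 ± 8.55 to 12.1 ± 3.70 CPM in wild type (log2 fold change -2.20, adjusted p = 0.00025) and from 44.2 ± 7.15 to 13.1 ± 5.56 CPM in L100 (-1.76, adjusted p = 0.0013). *bap-1a* (GRMZM2G008271), a basal layer antifungal peptide gene, fell by 2.45 on the log2 scale in wild type (adjusted p = 0.0051). Its log2 fold change was -2.11 in L100 (adjusted p = 0.012, and 0.053 in a fit of the 2 groups alone). With 1 library left out the L100 value ran from -2.53 to -1.69, with a highest adjusted p of 0.05, at the threshold. Its L100 libraries at 10 DAP held 257, 329 and 65.5 CPM. *ebe2* (GRMZM2G167733), a gene of the basal endosperm, fell from 6.97 to 0.84 CPM in wild type (log2 fold change -3.04, adjusted p = 5.5e-05). In L100 it fell from 4.57 to 0.364 CPM (log2 fold change -3.62, adjusted p = 5.2e-05). Its 15 DAP libraries held only 13 to 17 counts in wild type and 4 to 7 counts in L100. *ebe1* was not tested, at 0 to 0.627 CPM.

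*mn1* (GRMZM2G119689), the cell wall invertase that splits incoming sucrose, was at 1139 ± 248 CPM at 10 DAP and 581 ± 157 CPM at 15 DAP in wild type (SD, n = 3). It fell by 0.97 on the log2 scale in wild type (adjusted p = 0.021), a call lost without 10 DAP replicate 1 (adjusted p = 0.082) or 15 DAP replicate 2 (adjusted p = 0.081). In L100 its log2 fold change was -0.74 (adjusted p = 0.076), and it was called with DESeq2 (adjusted p = 0.039), library totals (-1.03, adjusted p = 0.015) and the replicate block (adjusted p = 0.035). Its L100 value ran from -0.999 (without 10 DAP replicate 2, called at adjusted p = 0.016) to -0.45 with 1 library left out. Of 2 models with the names *meg2* and *meg6*, GRMZM2G088896 fell by 1.94 on the log2 scale in wild type (adjusted p = 0.00051) and its log2 fold change was -2.40 in L100 (adjusted p = 0.00025). The second, GRMZM2G094054, had log2 fold changes of -1.83 in wild type (adjusted p = 0.14) and -2.54 in L100 (adjusted p = 0.061). One library of each 10 DAP group lay far below the other two for this model. In L100 replicate 3 held 16.4 CPM against 233 and 283 CPM, and in wild type replicate 3 held 41.9 CPM against 239 and 192 CPM. Without L100 10 DAP replicate 3 the model was called in L100 (-3.07, adjusted p = 0.0084) and in wild type (-1.86, adjusted p = 0.031). In L100 it was also called with DESeq2 (adjusted p = 0.021), with library totals (adjusted p = 0.032) and without wild-type 10 DAP replicate 3 (adjusted p = 0.049). The reference table gives both models as 1 gene, so reads could be split between them. *betl4* (GRMZM2G073290), a further small peptide gene, had a log2 fold change of -0.74 in wild type (adjusted p = 0.062) and 0.17 in L100 (adjusted p = 0.69). In wild type it was called with DESeq2 (adjusted p = 0.035), library totals (-1.05, adjusted p = 0.007), the 2 groups alone (adjusted p = 0.0042) and the filter of 5 CPM (adjusted p = 0.047). It was also called without L100 10 DAP replicate 1 or L100 15 DAP replicate 2 or 3 (adjusted p from 0.023 to 0.049).

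**Figure D3:**
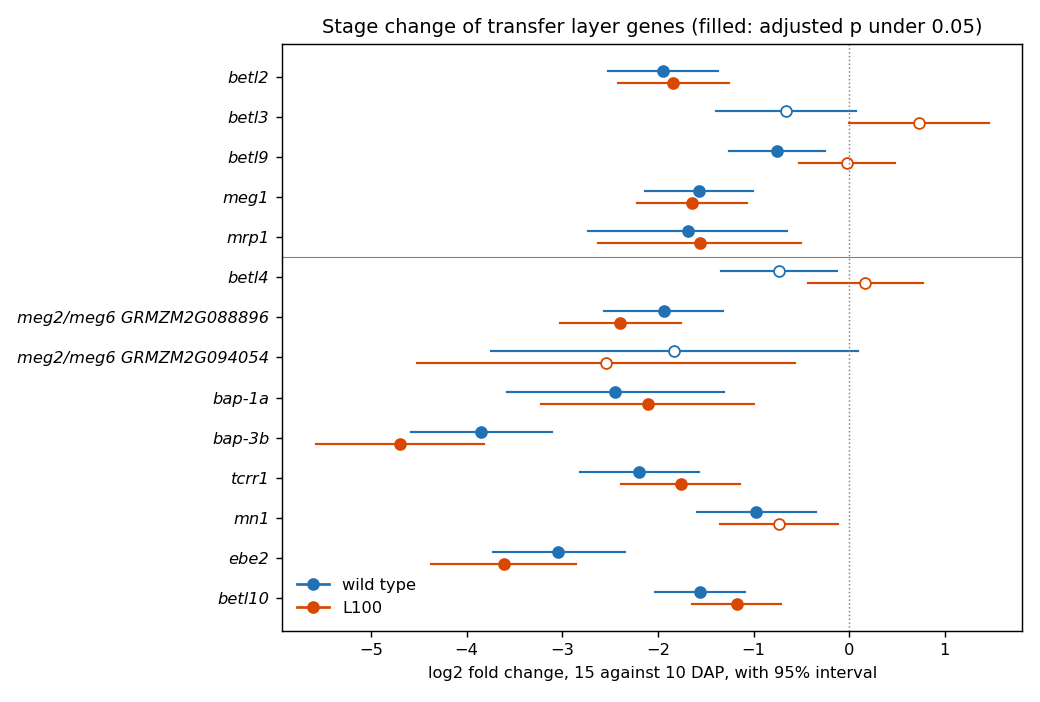
Log2 fold change from 10 to 15 DAP (horizontal axis) with its 95% interval for the 5 transfer layer genes (above the line), the 8 tested genes of the further list and *betl10*, in wild type (blue) and L100 (orange); filled points passed an adjusted p of 0.05. Most points lie left of 0 in both lines, with *bap-3b* farthest left. Intervals that reach or span 0 are those of *betl3*, *betl9* and *betl4* in L100, and of *betl3* and the *meg2*/*meg6* model GRMZM2G094054 in wild type.

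One gene of the further list, *bap-3b* (GRMZM2G133370), a relative of the basal layer antifungal peptides, differed between the lines at both stages. It was 1 of 8 tested at each stage, where 3.0% of all genes were called at 10 DAP and 6.66% at 15 DAP. Its wild-type libraries held 118, 78.8 and 91.5 CPM at 10 DAP and 5.28, 6.29 and 8.38 CPM at 15 DAP. Its L100 libraries held 15.5, 22.8 and 34.4 CPM at 10 DAP and 0.876, 0.486 and 1.46 CPM at 15 DAP, the last from 7 to 19 counts. All L100 libraries lay below all wild-type libraries of the same stage. *bap-3b* was 3.96-fold lower in L100 at 10 DAP (log2 fold change -1.99, SE 0.305, adjusted p = 0.0063) and 7.14-fold lower at 15 DAP (log2 fold change -2.84, SE 0.411, adjusted p = 0.0034). These calls held in all 12 fits with 1 library left out, with a highest adjusted p of 0.03 and 0.02. It also fell with stage, by 3.85 on the log2 scale in wild type (adjusted p = 2.7e-05) and its log2 fold change was -4.70 in L100 (adjusted p = 3.8e-05). Whether reads of a near-identical copy or a sequence difference between the stocks bear on its level was not tested. Other genes of the list had an unadjusted p under 0.05 at 15 DAP and were not called in the edgeR fit. They were *ebe2* (log2 fold change -1.18, adjusted p = 0.069) and GRMZM2G088896 (-0.79, adjusted p = 0.12), lower in L100. *bap-1a* went the other way (1.15, adjusted p = 0.2).

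The name *betl10* belongs in the reference table to GRMZM2G091445, which is not one of the identifiers in the list of 7. It had 216 ± 42.0 and 73.2 ± 17.4 CPM in wild type and 163 ± 34.7 and 72.4 ± 11.3 CPM in L100, at 10 and 15 DAP (SD, n = 3). It fell with stage by 1.56 on the log2 scale in wild type (adjusted p = 0.00031) and its log2 fold change was -1.17 in L100 (adjusted p = 0.0023). Between the lines its log2 fold change was -0.41 at 10 DAP (adjusted p = 0.31) and -0.02 at 15 DAP (adjusted p = 0.98).

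The same gene lay nearest to the mean profile of the 5 genes. Likeness was the root mean square difference in centred log2 CPM over the 12 libraries. For GRMZM2G091445 it was 0.186, the smallest among 16669 candidate genes, as the choice requires. The difference of the 5 genes themselves from their mean ran from 0.356 for *meg1* to 0.712 for *betl3*. The next were GRMZM2G138392 at 0.217, GRMZM2G431524 at 0.223, GRMZM2G059445 at 0.236 and GRMZM2G047143 (*mad2*) at 0.247. The nearest gene to *betl2* was the *meg2* and *meg6* model GRMZM2G088896 at 0.290. The nearest were GRMZM2G060170 for *betl9* at 0.144, GRMZM2G100473 for *meg1* at 0.280, GRMZM2G368410 for *betl3* at 0.300 and GRMZM2G178102 for *mrp1* at 0.366.

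**Figure D4:**
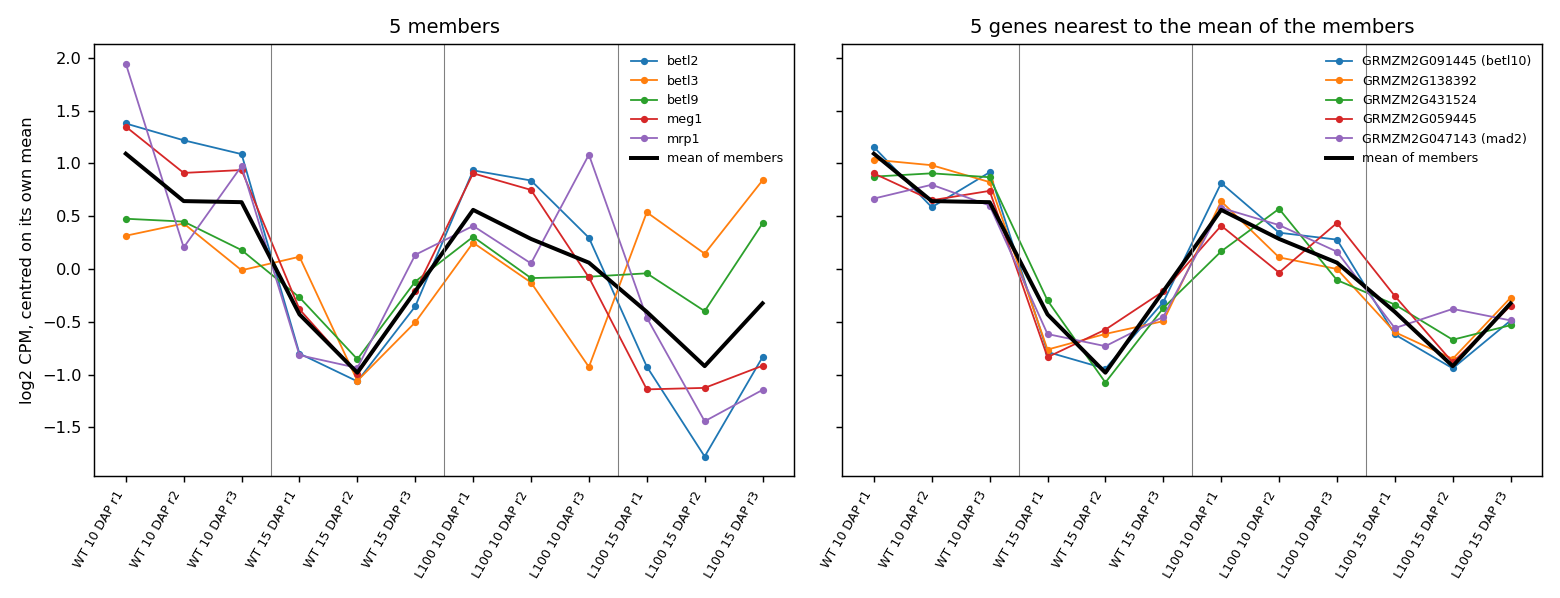
Log2 CPM in the 12 libraries, each gene centred on its own mean (vertical axis), for the 5 transfer layer genes (left) and the 5 genes nearest to their mean (right), with that mean in black; vertical lines part the groups. The 5 nearest genes, chosen for nearness to the mean, have differences of 0.186 to 0.247, and of the 5 transfer layer genes *betl3* departs from the mean most, at 0.712.

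Markers of other seed tissues moved with stage too. The 9 starchy endosperm genes, which include zeins and starch enzymes, were all called higher at 15 DAP in both lines, where 16.1% of all genes were called higher in wild type and 12.2% in L100. Their summed level ranged from 5803 to 10390 CPM in wild type at 10 DAP and from 67580 to 88590 CPM at 15 DAP, and in L100 from 2301 to 10660 and from 82190 to 120900 CPM. Of 4 embryo markers 3 were higher at 15 DAP in both lines, and 1 was higher in L100 than in wild type at 15 DAP, against 3.57% of all genes. Their sum averaged 399 and 1047 CPM in wild type and 332 and 2281 CPM in L100. Both tested markers of the embryo surrounding region were called lower in wild type, against 15.3% of all genes. Neither was called in L100, against 12.6%, with log2 fold changes of -1.21 for *esr1* (adjusted p = 0.13) and -2.57 for *esr3* (adjusted p = 0.14). The interaction was called for neither, so a difference between the lines was not shown. At 15 DAP *esr3* was at 0 to 0.303 CPM in wild type and 0 to 1.18 CPM in L100. Summed levels were 39.5 and 5.30 CPM in wild type and 32.2 and 12.8 CPM in L100. Of 4 aleurone markers 0 were called between stages in wild type and 1 was higher in L100. The part of these shifts in the levels of the transfer layer genes was not tested.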

How the data were processed

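Each deposited table gave 1 library of whole seeds, with 12 in all. The submitters' processing notes name Bowtie 0.12.2 and the build B73 RefGen v3. How reads were counted, with which strand setting, is not given in the sources used here. Expected counts, written by the authors as whole numbers, were tested, and the FPKM values the authors deposited were used to set genes side by side. The deposited normalized signal was not used. The fit used edgeR 4.0.16 under R 4.3.3: TMM scaling, filterByExpr, 1 mean per group over 12 libraries and robust quasi-likelihood F tests, two-sided. P-values were adjusted by Benjamini and Hochberg over 24941 genes, with a threshold of 0.05. The SE is the log2 fold change over the root of F. The rule named all members, every called gene of the further list (the 6 highest where more were called) and the genes nearest in profile with at least 5 CPM. Some genes past it are named with their values seen. Members and lists were chosen with earlier results of these data known. Gene names were looked up in a table for Zm-B73-REFERENCE-NAM-5.0. Alternatives were DESeq2 1.42.0, limma-voom (limma 3.58.1), RLE scaling, library totals, 2 filters, the replicate block, fits of 2 groups and leaving out each library. The steps were tested on simulated data. To look for pairing, the deviations of each library from its group mean (log2 CPM) were correlated between same-numbered libraries of different groups. These correlations, from -0.106 to 0.027, did not pair the libraries. Libraries of different numbers were not compared in this way. A promoter motif search was not run.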

Additional observations from a re-analysis of the deposited data

How the results depend on the processing

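The stage calls of *betl2* and *meg1* held in both lines under every alternative run. Mean levels of the 5 genes, recomputed with library totals alone, moved by less than 1 SD. Library totals shifted the median of all genes by stage to -0.33 in both lines, and calls from 4012 higher and 3824 lower to 1997 and 7374 in wild type, and from 3049 and 3153 to 1795 and 7051 in L100. For L100 against wild type they went from 439 and 310 to 479 and 234 at 10 DAP, and from 891 and 771 to 1156 and 471 at 15 DAP. DESeq2 called 1901 genes at 10 DAP, 2818 at 15 DAP and 1051 for the interaction, and at 15 DAP 1 of the 5 genes and 2 of the further list. The interaction had 65 genes with limma-voom and 74 with library totals. With the replicate block, whose numbers did not pair the libraries, 390, 1073 and 26 genes were called. A fit of 2 groups called 2 of the further list at 15 DAP, 1 higher and 1 lower in L100, where the 2 called by DESeq2 were lower. Limma-voom lost *mrp1* in L100 (adjusted p = 0.075). The cause of these differences was not tested.

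With 1 library left out, called genes ranged from 236 to 1261 at 10 DAP, 615 to 1869 at 15 DAP and 11 to 221 for the interaction. Called members by stage in wild type ranged from 2 (without 10 DAP replicate 1 or 15 DAP replicate 2) to 4, and called genes of the further list from 1 to 2 between the lines at each stage. At each stage the count of 2 came without L100 10 DAP replicate 3, with 1 higher and 1 lower in L100. Uncalled values near 0 changed sign. For the interaction the range was -0.0617 to 0.348 for *betl2*, -0.28 to 0.17 for *meg1* (0.000269 with limma-voom) and -0.41 to 0.56 for *mrp1*. For stage in L100 it was -0.27 to 0.15 for *betl9* and -0.18 to 0.51 for *betl4* (-0.14 with library totals). For *betl10* (GRMZM2G091445) between the lines at 15 DAP it was -0.15 to 0.19, with 0.0679 for library totals, 0.00162 with no filter and 0.0239 with at least 5 CPM in 3 libraries.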
